A study of Mus musculus with 10 samples.

Results

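The genes described here are the splicing regulators and heterogeneous nuclear ribonucleoproteins (hnRNPs) of mouse striatum. They were taken by symbol, as every gene named Srsf, Hnrnp, Sf3a, Sf3b or U2af, without pseudogenes and opposite-strand transcripts, which gave 44 of the 21230 genes measured: 11 SR proteins, 20 hnRNP proteins, 3 SF3A subunits, 6 SF3B subunits and 4 U2AF genes. RNA was sequenced from punches of the striatum of BACHD mice, an FVB/N line that carries a human full-length mutant HTT transgene beside its own Htt gene. There were 10 libraries, 5 from BACHD mice given SPI-24, a small-molecule inhibitor of the interaction of Spt5 with RNA polymerase II, and 5 from BACHD mice given the DMSO vehicle. Both groups were about 3 months old at the start and were treated for 8 weeks through an osmotic pump under the skin. All mice carried the transgene, so no library shows these genes in mice without it.

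SR proteins bind exonic enhancers through their RNA recognition motifs and recruit the spliceosome through domains rich in arginine and serine. Many hnRNP proteins coat nascent transcripts and silence exons or cover cryptic splice sites. U2AF marks the polypyrimidine tract and the AG of the 3′ splice site, and SF3A and SF3B are the parts of the U2 small nuclear ribonucleoprotein that settle on the branch point. These proteins act while RNA polymerase II is still transcribing, and the speed of elongation, in which Spt5 takes part, is known to change which splice sites are used. The counts given here sum all isoforms of a gene, so exon usage was not measured.

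Of the 44 genes, 43 had a mean normalized count of at least 10 and were tested. The exception was a second gene model named U2af1l4 (ENSMUSG00000109378), which was listed at 0 in 7 libraries. The values are the authors' read counts after scaling by 1 size factor for each library, named normalized counts here. Reads counted over all genes measured ranged from 5.48 to 46.9 M between libraries. The striatal identity of the punches differed between libraries. The summed level of 11 medium spiny neuron markers, the genes of the main striatal neuron, spanned 3510 to 99413 normalized counts in SPI-24 libraries and 4341 to 91948 in DMSO libraries, and 4 of the 11, the dopamine receptor gene Drd1 among them, were at 0 in at least 1 library. The summed level of 6 choroid plexus markers spanned 1529 to 29410 normalized counts in SPI-24 libraries and 538 to 188025 in DMSO libraries. That of 6 markers of thalamus and hindbrain neurons spanned 6111 to 26167 normalized counts in SPI-24 libraries and 1257 to 27227 in DMSO libraries.

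The median deviation of the 43 members from their own mean over the libraries was 0.042, 0.0013, -0.12, -0.070 and 0.12 on the log2 scale in SPI-24 libraries 1 to 5, and 0.21, -0.0054, -0.043, 0.099 and 0.038 in DMSO libraries 1 to 5. The mean deviation of the medium spiny neuron markers in the same libraries was -1.72, 1.80, -1.33, -2.25 and 3.48 with SPI-24 and 3.29, -0.88, -3.42, 2.20 and -1.17 with DMSO. DMSO library 1 and SPI-24 library 5, the 2 libraries highest in the spiny neuron markers, also had the highest median deviations of the splicing genes. The same 2 libraries were the lowest in the thalamus and hindbrain markers, with mean deviations of -3.37 and -1.44. A median over genes that deviate in both directions stays near 0 and does not show how far single members followed the tissue. The part of this tissue difference in single genes was not tested beyond the fits given with them.

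Several members have processed copies elsewhere in the mouse genome, and reads that aligned to more than 1 place were discarded before counting. The stretches printed here show how little such a read has to go by. They were taken from coding sequences of the GENCODE M21 annotation of GRCm38, are written 5′ to 3′ in lower case, and have the bases that differ between gene and copy in capitals. Hnrnpf (chr6:117900324-117925622, plus strand) and the processed pseudogene Gm6430 (chr1:97024681-97025928, plus strand) matched over 1245 coding bases with 9 differences. The stretch covers bases 65 to 144 of the Hnrnpf coding sequence, counted from 1 at its first base, and holds A105C (Hnrnpf has the first base and Gm6430 the second).
Hnrnpf: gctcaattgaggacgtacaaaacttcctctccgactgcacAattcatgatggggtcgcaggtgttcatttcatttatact
Gm6430: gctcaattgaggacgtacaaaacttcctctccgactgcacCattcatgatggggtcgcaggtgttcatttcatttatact

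Sf3b4 (chr3:96172332-96177564, plus strand) differed from Gm7935 (chr15:74080234-74081511, minus strand) at 6 of 1272 coding bases, and bases 95 to 174, counted in the same way, hold C135A.
Sf3b4: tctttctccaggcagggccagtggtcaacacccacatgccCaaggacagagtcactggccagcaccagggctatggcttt
Gm7935: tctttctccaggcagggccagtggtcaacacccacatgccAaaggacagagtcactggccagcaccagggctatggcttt

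U2af1 (chr17:31647081-31658892, minus strand) differed from Gm10232 (chr17:3044014-3044733, minus strand) at 2 of 717 coding bases, and bases 80 to 159 hold A120G.
U2af1: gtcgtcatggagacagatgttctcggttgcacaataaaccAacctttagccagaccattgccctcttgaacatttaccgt
Gm10232: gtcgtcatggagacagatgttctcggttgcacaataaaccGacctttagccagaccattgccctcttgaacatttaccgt

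For Hnrnpa1 (chr15:103240432-103246692, plus strand) the coding sequence of 960 bases was found whole and without a difference in the pseudogene Gm10052 (chr9:123689233-123690192, minus strand), and its first 80 bases stand for both.
Hnrnpa1 and Gm10052: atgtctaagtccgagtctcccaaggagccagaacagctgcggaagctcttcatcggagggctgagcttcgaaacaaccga

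Likewise, the 1071 coding bases of Hnrnpa3 (chr2:75659261-75669407, plus strand) were found without a difference in Gm5641 (chr3:54481438-54482925, plus strand). Over all exons of a gene, untranslated parts included, the share of 50-base windows, the length of 1 read, that also occur in another annotated gene was 43.6% for Sf3b4, 43.2% for Hnrnpf, 28.2% for Hnrnpa1, 26.9% for Hnrnpa3 and 21.7% for U2af1. Between 10% and 20% of the windows of Hnrnph2, U2af2, Hnrnpk, Srsf10, Srsf5 and Srsf3 were shared, and at most 8.28% of those of the other 32 members tested. Reads from the shared windows are not in the counts, so the levels of the first 5 genes are lower bounds. Copies that share at least 100 windows with a member and are themselves in the table numbered 13, and the highest library of each had 7.99 to 135 normalized counts.

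Per kilobase of merged exons, the level of the splicing genes ranged widely. This length merges all annotated isoforms and was 22.2 kb for Hnrnpr, 10.9 kb for Sf3b3 and 2.85 kb for Sf3b6. Which isoforms were present was not measured, so the ranks depend on the annotation as well as on the counts. Among the SR proteins, Srsf1, which promotes exon inclusion and was one of the first SR proteins described, had the highest mean over all libraries, 392 normalized counts per kb, followed by Srsf9 with 351. Srsf12 was lowest with 64.8, a 6.05-fold range within the family. Among the hnRNP proteins, Hnrnpc, which binds uridine tracts of nascent transcripts, led with 896 normalized counts per kb, ahead of Hnrnpa2b1 with 823. Leaving out the hnRNP genes with many shared windows, Hnrnpr was lowest with 25.6, a 35.0-fold range. Sf3b6, the subunit that lies next to the branch point adenosine, had 936 and Sf3b2 had 591 normalized counts per kb, while Sf3b3, which belongs to the same complex, had 42.8. U2af2, the large U2AF subunit, had 231 normalized counts per kb. U2af1, the small subunit, had 97.3, a lower bound.

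**Figure D1:**
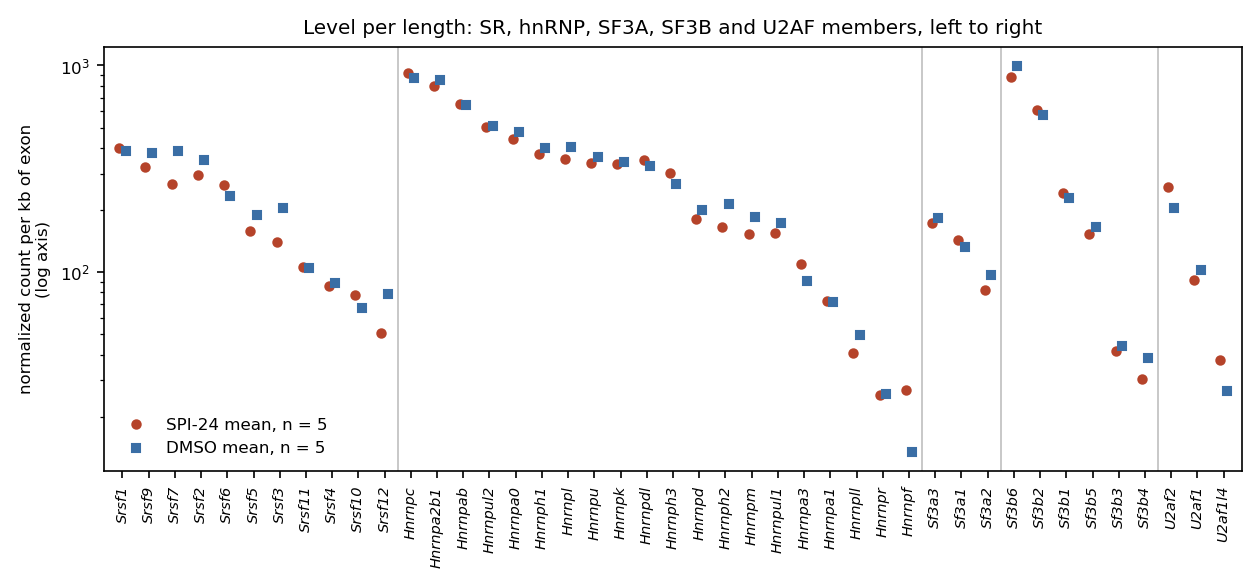
Mean normalized count per kb of merged exons (log axis) of the 43 members tested in 5 SPI-24 libraries (circles) and 5 DMSO libraries (squares), by family and ordered by the mean of all libraries. The 2 marks of a gene lie close beside the range between genes, which is 35.0-fold among hnRNP genes with few shared windows.

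The comparison of SPI-24 with DMSO asked whether splicing regulators changed after 8 weeks of an inhibitor of Spt5 and RNA polymerase II. For this pump treatment, the study reports that very little SPI-24 remained in the brain and that Htt protein did not measurably change. It also reports improved motor tests. The degree of Spt5 inhibition in these mice was not measured here. By limma with Benjamini-Hochberg adjustment over all 15871 genes tested, no member was called at an adjusted p under 0.05, and neither was any other gene (0% of all genes tested). edgeR, DESeq2 and limma-voom on the recovered reads also called none of the 43 members. At an unadjusted p under 0.05, 2 of 43 members were lower with SPI-24, Srsf3 and Srsf7 (4.65%, against 1.27% of all genes tested that were lower at that threshold), and none was higher (against 0.958% of all genes tested). That count was 2 by edgeR, 3 by DESeq2, which added Srsf12, and 0 by limma-voom, and it was 0 without DMSO library 1, DMSO library 3, SPI-24 library 2, SPI-24 library 3 or SPI-24 library 4, 1 without DMSO library 4 or SPI-24 library 1, and 5 without SPI-24 library 5, so single libraries decided it. For no member did all 5 SPI-24 libraries lie above all 5 DMSO libraries or below them, which held for 0.195% (above) and 0.321% (below) of all genes tested.

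The fitted log2 fold change was above 0 for 18 members and below 0 for 25, with a median of -0.032, beside a median of 0.0014 and 50.2% above 0 over all genes tested. Without SPI-24 library 3, 23 members were above 0 and the median was 0.0051; by limma-voom, 13 were above 0. The intervals of the members were narrow against all genes tested, but about as wide as those of genes with high counts. For 32 of 43 members (74.4%) both ends of the 95% interval were smaller than a 2-fold difference, against 37.9% of all genes tested and 83.4% of 6272 genes averaging 500 or more normalized counts. For 15 members (34.9%) both ends were smaller than a 1.5-fold difference, against 12.7% and 32.1% in the same gene groups. In bulk tissue, fewer cells of a type and less RNA per cell cannot be told apart, which holds for every difference given here.

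**Figure D2:**
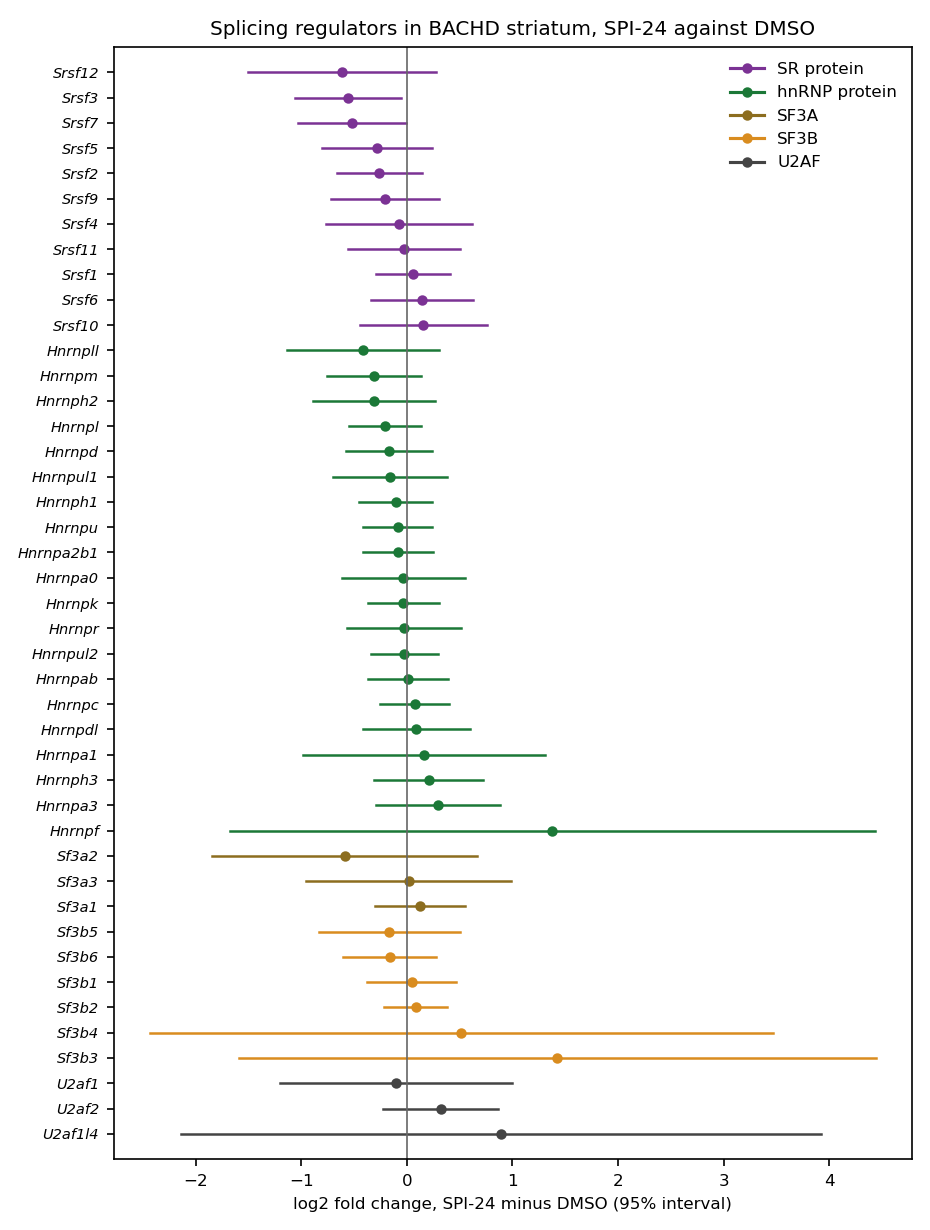
Log2 fold change, SPI-24 minus DMSO, of the 43 members tested, by family, with the 95% interval from limma (lines). The intervals of Srsf3 and Srsf7 end below 0 before adjustment, and those of Hnrnpf, Sf3b4, Sf3b3 and U2af1l4, each listed at 0 in 1 library, are the widest.

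The SR proteins had the lowest median of the 5 families. Of the 11, 8 had a log2 fold change below 0 and 3 (Srsf1, Srsf6 and Srsf10) above 0, with a median of -0.21. Summed, their reads made up 0.0521, 0.0499, 0.0477, 0.0454 and 0.0493% of all counted reads in SPI-24 libraries 1 to 5, and 0.0588, 0.0509, 0.0571, 0.0561 and 0.0569% in DMSO libraries 1 to 5. The groups overlapped, since DMSO library 2 lay below SPI-24 library 1, and the other 4 DMSO libraries lay above all SPI-24 libraries. Several cell type lists were examined, and the endothelial list is given here with its values known. In the other lists the groups overlapped more. The mean deviation of 5 endothelial cell markers was higher in 4 of 5 SPI-24 libraries than in every DMSO library. The mean log2 deviation of the 5 markers was 0.64, 0.49, 0.58, 0.69 and -1.28 in SPI-24 libraries 1 to 5, against -0.49, -0.19, -0.31, -0.032 and -0.100 in DMSO libraries 1 to 5. Their summed level was 1627 to 3011 normalized counts with SPI-24 and 1395 to 2184 with DMSO. For each marker alone the ranges of the groups overlapped. The highest library of Cldn5 was a DMSO library (995 against 839 normalized counts), and that of the other markers an SPI-24 library. None of the 5 was at 0 in any library. In SPI-24 library 5, Pecam1 had only 2.07 normalized counts, the value of 1 read there. The part of these markers in the values of the SR proteins, Srsf3 and Srsf7 included, was not tested. The summed share of counted reads for the hnRNP proteins was 0.181% ± 0.012 with SPI-24 and 0.196% ± 0.021 with DMSO (SD, n = 5 each). For the SF3A and SF3B subunits it was 0.0621% ± 0.00365 with SPI-24 and 0.0643% ± 0.00695 with DMSO (SD, n = 5 each). These sums describe the libraries and were not tested, because the genes with most reads outweigh the others in them.

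**Figure D3:**
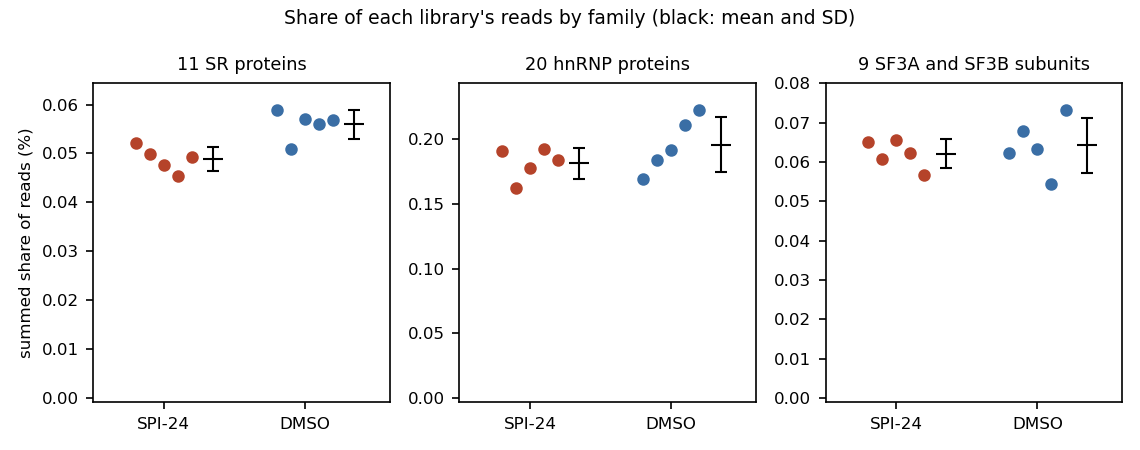
Share of all counted reads of each library, in percent, that fell on the 11 SR proteins, the 20 hnRNP proteins and the 9 SF3A and SF3B subunits, with SPI-24 libraries left and DMSO libraries right and the mean and SD in black. SPI-24 and DMSO libraries overlap in each panel, least in that of the SR proteins.

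Srsf3 and Srsf7 encode 2 small SR proteins that also serve as adaptors for mRNA export. Srsf3 (chr17:29032628-29043373, plus strand) had 1541, 681, 1048, 1018 and 1258 normalized counts in SPI-24 libraries 1 to 5, and 2145, 1205, 1719, 1749.6 and 1243 in DMSO libraries 1 to 5. Of the SPI-24 libraries, 3 lay below all DMSO libraries and all 5 below the DMSO median, while libraries 1 and 5 lay within the DMSO range. The means were 1109 ± 318 with SPI-24 and 1612 ± 393 with DMSO (SD, n = 5 each). The log2 fold change was -0.56 (SE 0.24, 95% interval -1.06 to -0.052, limma adjusted p = 0.999, unadjusted 0.033). Over the alternatives tried, that change ran from -0.69 to -0.36 and its unadjusted p from 0.012 to 0.15. With the medium spiny neuron level as a covariate, Srsf3 and Srsf7 were again the 2 members at an unadjusted p under 0.05. Without the 2 libraries highest in spiny neuron markers the 2 were Srsf7 and Hnrnpl, and Srsf3 had a p of 0.075 by limma. The mean deviation of these markers was -0.0036 with SPI-24 and 0.0036 with DMSO, so the covariate could hardly move a fold change. Levels of other cell types were not fitted.

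Srsf7 (chr17:80200080-80207307, minus strand) had 752, 689, 958, 1026 and 1299.7 normalized counts in SPI-24 libraries 1 to 5, against 2158, 1319, 1183, 1158 and 1025 in DMSO libraries 1 to 5. DMSO library 1 stood apart from the other 4, which lay between 1025.0 and 1319, and SPI-24 libraries 4 and 5 lay within that range. The means were 945 ± 243 with SPI-24 and 1369 ± 454 with DMSO (SD, n = 5 each). The log2 fold change was -0.52 (SE 0.24, 95% interval -1.03 to -0.0090, limma adjusted p = 0.999, unadjusted 0.047), and -0.34 without DMSO library 1. As background, several SR genes, these included, carry a poison exon whose inclusion sends the transcript to decay, and a summed count does not separate such transcripts.

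The lowest fold change of an SR protein was that of Srsf12, a family member with repressor activity in human cells. It had 187, 141, 130.1, 193 and 153 normalized counts in SPI-24 libraries 1 to 5, against 284, 227, 297, 186 and 242 in DMSO libraries 1 to 5. Only DMSO library 4 reached down into the range of the SPI-24 libraries. The log2 fold change was -0.61 (SE 0.42, unadjusted p = 0.16 by limma), and over the alternatives the p ran from 0.016 to 0.26.

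Srsf2, an activator of exons that is also known for releasing the elongation kinase P-TEFb from its 7SK inhibitor, had 740.2, 902, 852, 738 and 1122 normalized counts in SPI-24 libraries 1 to 5 and 1158, 1035, 896, 1115 and 967 in DMSO libraries 1 to 5. SPI-24 library 5 was among the highest of all 10, and 3 of the other 4 lay below all DMSO libraries. Its log2 fold change was -0.26 (SE 0.19, unadjusted p = 0.19). Srsf5 had 993, 562, 498, 522 and 579 normalized counts in SPI-24 libraries 1 to 5 and 1001, 702, 742, 632 and 689 in DMSO libraries 1 to 5. Here 4 of 5 SPI-24 libraries lay below all DMSO libraries and library 1 stood near the highest DMSO library, with a log2 fold change of -0.29 (SE 0.24, unadjusted p = 0.26).

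Of the SR proteins with the most RNA per length, Srsf1 had 2596, 2446, 2227, 1766 and 2386 normalized counts in SPI-24 libraries 1 to 5 and 2492, 2116, 1764, 2493 and 2095 in DMSO libraries 1 to 5. The groups covered nearly the same range, and the log2 fold change of 0.059 (SE 0.16, 95% interval -0.29 to 0.41) bounded a difference of Srsf1 more closely than that of any other SR protein. Srsf9 had 437, 595, 569.5, 476 and 602 normalized counts in SPI-24 libraries 1 to 5 and 683, 412, 656, 661 and 716 in DMSO libraries 1 to 5. DMSO library 2 was the lowest of all 10 and the other 4 DMSO libraries lay above every SPI-24 library, with a log2 fold change of -0.21 (SE 0.24, unadjusted p = 0.40).

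Srsf6 is named outside the rule for genes, with its values known, because it is known to bind the expanded CAG repeat of HTT RNA, where it has been linked to incomplete splicing of the first exon. It had 1073, 1693, 935, 954 and 1695 normalized counts in SPI-24 libraries 1 to 5 and 998, 945, 1545, 1089 and 1051 in DMSO libraries 1 to 5. SPI-24 libraries 2 and 5 and DMSO library 3 lay well above the other libraries of their groups, which covered nearly the same range. The log2 fold change was 0.14 (SE 0.23, 95% interval -0.34 to 0.63). The HTT transgene is human, and its transcripts and their splicing were not analysed here. Of the remaining SR proteins, Srsf4, Srsf10 and Srsf11 had log2 fold changes of -0.074, 0.16 and -0.030, each smaller than its standard error.

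**Figure D4:**
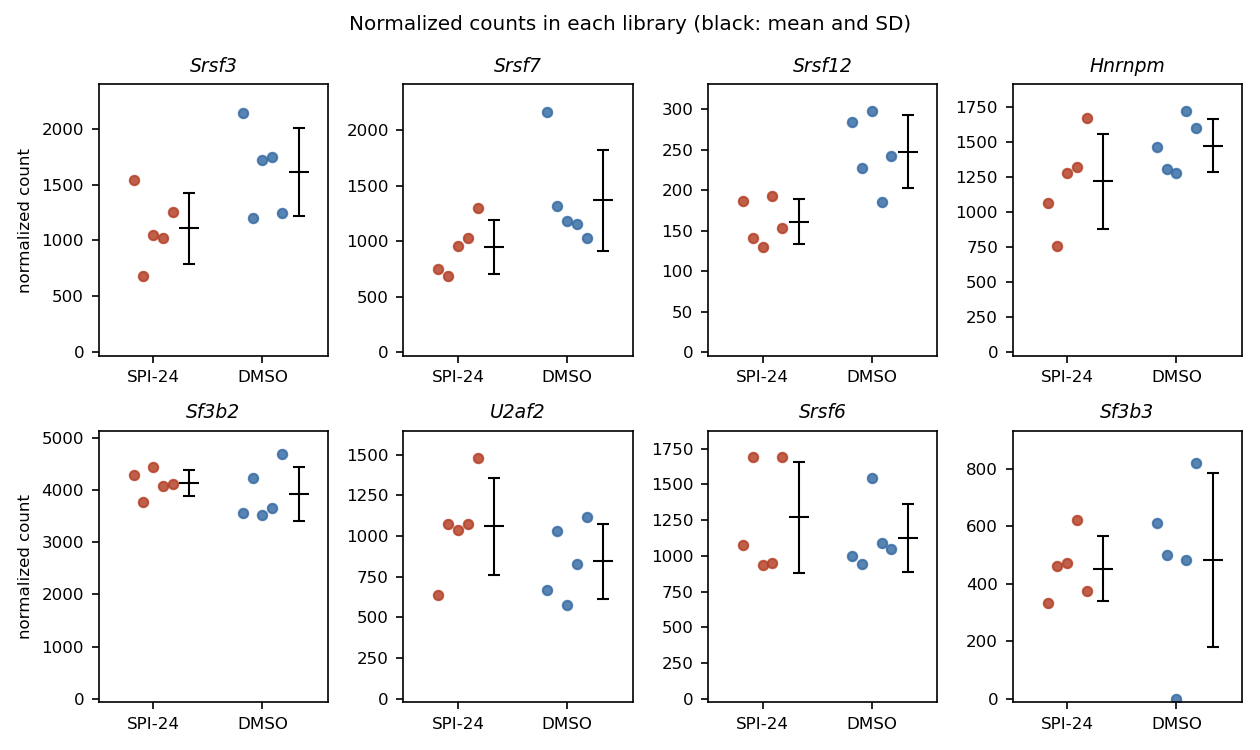
Normalized counts of 8 members in each of the 5 SPI-24 libraries (left) and 5 DMSO libraries (right) of a panel, with the group mean and SD in black. SPI-24 and DMSO libraries overlap in all panels, and Sf3b3 has a DMSO library at 0 while its other libraries lie between 331 and 820.5.

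Among the 20 hnRNP proteins, 7 had a log2 fold change above 0 and 13 below, with a median of -0.032, and 10 of the 20 intervals lay within a 1.5-fold change. Hnrnpm, which binds GU-rich RNA, had the smallest p of the family. It had 1068, 761, 1277, 1325 and 1676 normalized counts in SPI-24 libraries 1 to 5 and 1469, 1312, 1278, 1723 and 1599 in DMSO libraries 1 to 5. SPI-24 library 5 lay near the top of all libraries and 3 SPI-24 libraries lay below all DMSO libraries, with a log2 fold change of -0.31 (SE 0.21, unadjusted p = 0.16 by limma). Of its exon sequence, 14.7% overlaps another gene on the same strand, March2, so its count may lack reads that could not be assigned.

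Hnrnpl and Hnrnpll are related proteins that bind CA-rich RNA. Hnrnpl had 1692, 2000.4, 1896, 2192 and 2777 normalized counts in SPI-24 libraries 1 to 5 and 2483, 2134, 2611, 2518 and 2289 in DMSO libraries 1 to 5. Its highest value was that of SPI-24 library 5, and 3 of the other 4 SPI-24 libraries lay below all DMSO libraries (log2 fold change -0.21, SE 0.16, unadjusted p = 0.22). Hnrnpll had 504, 183, 492, 443 and 743 normalized counts in SPI-24 libraries 1 to 5 and 684, 601, 496, 534 and 579 in DMSO libraries 1 to 5. SPI-24 library 5 was again the highest of all 10 and SPI-24 library 2 by far the lowest, and the log2 fold change of -0.41 (SE 0.34, unadjusted p = 0.24) was -0.11 without that library.

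Hnrnph2, which binds runs of guanines, had 813, 545, 817, 648 and 778 normalized counts in SPI-24 libraries 1 to 5 and 1035, 451, 1299, 915 and 959 in DMSO libraries 1 to 5. All SPI-24 libraries lay below the DMSO median but none below DMSO library 2, and the log2 fold change was -0.31 (SE 0.27, unadjusted p = 0.27), or -0.55 without that library. The hnRNP proteins with the most RNA per length were close to equal in the groups. Hnrnpc had 4226, 4626, 3686, 4295 and 3092 normalized counts in SPI-24 libraries 1 to 5 and 3512, 3322, 4040.0, 4322 and 3621 in DMSO libraries 1 to 5, a log2 fold change of 0.075 (95% interval -0.25 to 0.40). Hnrnpa2b1, a core protein of hnRNP particles, had 5553, 4576, 4946, 5120.0 and 5995 normalized counts in SPI-24 libraries 1 to 5 and 4562, 4892, 6880.3, 6118 and 5546 in DMSO libraries 1 to 5, a log2 fold change of -0.087 (95% interval -0.42 to 0.24). The SPI-24 libraries reached past the DMSO range at both ends for Hnrnpc and lay inside it for Hnrnpa2b1.

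The 95% intervals of the other hnRNP proteins all included 0. Hnrnpu, a scaffold protein of the nuclear matrix, Hnrnpul2, Hnrnpk, which binds C-rich RNA, Hnrnph1 and Hnrnpab had log2 fold changes of -0.087, -0.023, -0.032, -0.11 and 0.011, each with a 95% interval within a 1.5-fold change. Hnrnpd, which binds AU-rich RNA, its relative Hnrnpdl, Hnrnpr, Hnrnpul1, Hnrnpa0 and Hnrnph3 had log2 fold changes between -0.17 for Hnrnpd and 0.21 for Hnrnph3. Hnrnpa3 and Hnrnpa1, with identical copies elsewhere, had 0.29 (SE 0.27) and 0.16 (SE 0.54). Hnrnpa1, a classic antagonist of SR proteins in splice site choice, had 182, 166, 285, 159.8 and 352 normalized counts in SPI-24 libraries 1 to 5 and 263, 243, 61.5, 385 and 181 in DMSO libraries 1 to 5, from reads that the copies do not share, and its lowest and highest library were both DMSO libraries.

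The 9 subunits of SF3A and SF3B had 6 log2 fold changes above 0 and 3 below. Sf3b2, a subunit that contacts RNA near the branch point, was the steadiest gene of all members. It had 4288, 3768, 4443, 4074 and 4116 normalized counts in SPI-24 libraries 1 to 5 and 3557, 4237, 3514, 3647 and 4686 in DMSO libraries 1 to 5. SPI-24 libraries lay within the DMSO range throughout, the SD within groups was 0.14 on the log2 scale, and the log2 fold change was 0.082 (SE 0.14, 95% interval -0.22 to 0.38). Sf3b1, the subunit that clamps the branch point and the target of splicing inhibitors such as pladienolide B, had a log2 fold change of 0.048 (95% interval -0.37 to 0.47).

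Sf3b6 had 2685, 3041, 2915, 2158 and 1776 normalized counts in SPI-24 libraries 1 to 5 and 3406, 3287, 3264, 2180.3 and 2005 in DMSO libraries 1 to 5. In each group the libraries labelled 4 and 5 were the lowest, and the log2 fold change was -0.16 (SE 0.21, unadjusted p = 0.44). The 3 SF3A subunits, which join SF3B to the rest of the U2 particle, had log2 fold changes of 0.13 (SE 0.20) for Sf3a1, -0.59 (SE 0.59) for Sf3a2 and 0.017 (SE 0.45) for Sf3a3. Sf3b5 had -0.17 (SE 0.31).

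U2af2, whose RNA-binding domains hold the polypyrimidine tract and which has been linked to the export of CAG repeat RNA, had the largest positive log2 fold change of the members with reads in every library. It had 637, 1074, 1035, 1074 and 1478 normalized counts in SPI-24 libraries 1 to 5 and 668, 1033, 578, 828 and 1115 in DMSO libraries 1 to 5. SPI-24 library 5 lay above all others, SPI-24 library 1 was lower than 4 of the 5 DMSO libraries, and the log2 fold change was 0.32 (SE 0.25, unadjusted p = 0.23 by limma). Over the alternatives it ran from 0.11 to 0.49. U2af1, which reads the AG of the 3′ splice site, had 165, 376, 123, 175 and 358 normalized counts in SPI-24 libraries 1 to 5 and 271, 196, 547, 115 and 202 in DMSO libraries 1 to 5. DMSO libraries held both the lowest and the highest value, and the log2 fold change was -0.10 (SE 0.51, 95% interval -1.20 to 0.99).

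The members differed widely in their spread between libraries. The SD within groups of log2(normalized count + 1) had a median of 0.37 over the 43 members, against 0.72 over all genes tested and 0.38 over genes averaging 500 or more. The 4 members of largest spread each had 1 library at 0. Sf3b3, the subunit that carries propeller domains in SF3B, had 331, 462, 471, 622 and 375 normalized counts in SPI-24 libraries 1 to 5 and 610.0, 499.9, 0, 483 and 820.5 in DMSO libraries 1 to 5. DMSO library 3 was at 0, where a count of 0 allows up to 10.3 normalized counts (3 reads, counting error only), while the other 9 libraries lay between 331 and 820.5. The log2 fold change was 1.42 (SE 1.41) with that library and -0.42 without it. Over the whole table, 9 genes were at 0 in a single library with at least 300 normalized counts in each of the others, and for 6 of them that library was DMSO library 3, the library with the fewest counted reads.

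Sf3b4 had 15.7, 130.0, 40.2, 58.9 and 82.8 normalized counts in SPI-24 libraries 1 to 5 and 0, 150.4, 37.6, 126 and 101 in DMSO libraries 1 to 5. DMSO library 1 was at 0 (up to 3.57 allowed), and the log2 fold change of 0.52 (SE 1.38) was -0.79 without it. Hnrnpf had 13.7, 152, 10.7, 85.2 and 147 normalized counts in SPI-24 libraries 1 to 5 and 41.6, 14.4, 0, 112 and 37.4 in DMSO libraries 1 to 5. DMSO library 3 was at 0 (up to 10.3 allowed), and the log2 fold change of 1.38 (SE 1.43) was 0.30 without it. U2af1l4, a relative of U2af1, had 7.85, 63.6, 25.1, 34.1 and 180.1 normalized counts in SPI-24 libraries 1 to 5 and 39.2, 0, 116, 45.2 and 18.9 in DMSO libraries 1 to 5. DMSO library 2 was at 0 (up to 1.97 allowed), and the log2 fold change of 0.89 (SE 1.42) was -0.21 without it. These 4 fold changes depend on the 1 added before the logarithm and on a single library, and 65.6% of the exon sequence of U2af1l4 overlaps another gene on the same strand.

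The 5 members with at least 20% of their windows in other genes had a median SD of 0.79, against 0.33 for the other 38. Their mean counts were also lower, with a median of 228 normalized counts against 1177, so the part of the copies in the spread was not tested. Sf3b3 and U2af1l4, without shared windows, had SDs of 2.93 and 2.18, beside 2.24 for Hnrnpf and 2.28 for Sf3b4.

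**Figure D5:**
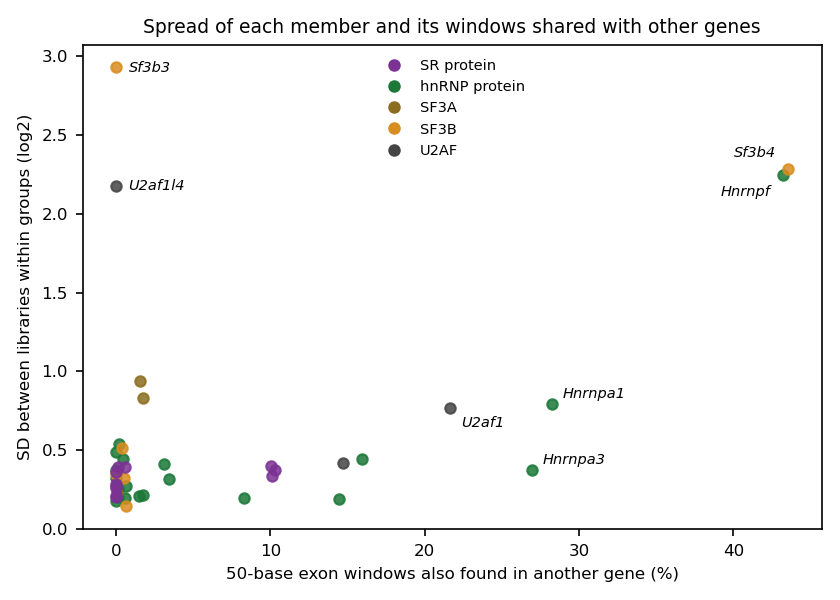
SD of each of the 43 members between libraries within groups (log2 scale) against the share of its 50-base exon windows that also occur in another annotated gene, in percent. Members with few shared windows lie mostly under 0.5, Hnrnpf and Sf3b4 lie above 2 with over 40% of windows shared, and Sf3b3 and U2af1l4 lie above 2 with none.

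Other genes of splicing gave a like picture, with 0 genes called in each list by limma. Of 19 U1, U2 and Sm proteins, 8 had a log2 fold change above 0 and 11 below, and none was at an unadjusted p under 0.05. Of 43 proteins of the U4/U6.U5 tri-snRNP and of the Prp groups, 22 were above 0 and 21 below, with Xab2 (0.57, SE 0.26) and Prpf40b (-0.93, SE 0.42) at an unadjusted p under 0.05. Of 25 kinases and relatives of SR proteins, 11 were above 0 and 14 below, with Srek1 (-0.87, SE 0.38) at that threshold. Of 48 tissue-specific and other regulators, 23 were above 0 and 25 below.

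In the last list stood Sfpq, a partner of Nono in paraspeckles that binds long introns and is known to support elongation through long neuronal genes. Sfpq had 1860.4, 2551, 1833, 1691 and 2719 normalized counts in SPI-24 libraries 1 to 5 and 1402, 1467, 708, 1671 and 1594 in DMSO libraries 1 to 5. Every SPI-24 library lay above every DMSO library, a separation that none of the members showed and that 0.195% of all genes tested did. The log2 fold change was 0.67 (SE 0.24, limma adjusted p = 0.999, unadjusted 0.013), so the difference did not pass the test. Nono had 907, 575, 867, 756 and 1238 normalized counts in SPI-24 libraries 1 to 5 and 1208, 831, 1651, 1273 and 1159 in DMSO libraries 1 to 5, with overlap of the groups and a log2 fold change of -0.51 (SE 0.24).

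Of 40 genes of RNA polymerase II elongation, 22 had a log2 fold change above 0 and 18 below, and none reached an unadjusted p under 0.05. The smallest p values were those of Cdc73, a subunit of the PAF complex (0.55, SE 0.28), and Nelfb, which belongs to the pausing complex NELF (0.43, SE 0.23). Supt5, which encodes Spt5, had 1541 ± 298 normalized counts with SPI-24 and 1499.9 ± 229 with DMSO, and its partner Supt4a had 652 ± 166 with SPI-24 and 669 ± 136 with DMSO (SD, n = 5 each). Their log2 fold changes were 0.031 (SE 0.18) and -0.056 (SE 0.25). The mouse Htt gene had 947 ± 228 normalized counts with SPI-24 and 1201 ± 455 with DMSO (SD, n = 5 each). Its log2 fold change was -0.31 (SE 0.25). The authors' alignment used a mouse reference, which does not hold the human transgene. Whether transgene reads were counted under mouse Htt was not tested, so these values may not stand for the mouse gene alone.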

How the data were processed

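Polyadenylated RNA was made into stranded libraries and read from 1 end over 50 bases. Per the labels and the study's methods, the authors used cutadapt for trimming and STAR for alignment to GRCm38, dropped reads under 30 bases and reads aligned to several places, counted with HTSeq and scaled with DESeq2, with tool versions not given in the sources used here. Each deposited signal is a gene's count divided by the size factor of its library. Deposited log2 fold changes and p-values of the authors' own comparison were not used.

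Reads were recovered by dividing each value by the value of 1 read. The quotients of all 154521 non-zero values (100%) came within 0.1 of whole numbers, and edgeR 4.0.16, DESeq2 1.42.0 and limma-voom were run on them as alternatives. The main test was limma 3.58.1 with trend in R 4.3.3 on log2(normalized count + 1), for 15871 of 21230 genes with a mean of at least 10, 5 SPI-24 against 5 DMSO libraries, with Benjamini-Hochberg adjustment. Fold changes are on that scale and depend on the added 1 for low genes and for those at 0 in a library. Libraries are labelled as separate biological replicates. The test was checked on simulated counts drawn independently for each gene. These lacked tissue differences shared between genes, so the check does not cover such differences.

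Members were matched by symbol. Hnrnpa1l2-ps2 fits the pattern but is a pseudogene and was left out. The members and lists were chosen with earlier results of these data known. Per-library values and fold changes with an SE, a 95% interval or a p are given for the 10 members of smallest p, the 2 of highest level per kb in each family (SR, hnRNP, SF3A with SF3B, U2AF), and the 4 of largest spread. Outside that rule, Srsf6 and Hnrnpa1 are given in the same way. Hnrnpa3, Sf3b1, Sf3b5 and the SF3A subunits have a fold change with an SE or a 95% interval. Fold changes are given for the 2 genes of smallest p of each other list. Supt5, Supt4a and Htt have fold changes and group means. Luc7l3 (0.28, SE 0.18), Snrpd2 (-0.28, SE 0.22) and Tnpo3 (0.44, SE 0.22) complete that rule. Exon lengths, overlaps and shared windows come from GENCODE M21.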

Additional observations from a re-analysis of the deposited data

Results flagged for a closer look

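In 3 of 48 groups of 5 libraries examined for the named genes (6.25%), 1 library lay far from the other 4 by Dixon's criterion. The criterion marks about 1 in 20 groups of normally distributed values. The named genes were chosen partly by spread and p, so that rate is no measure of chance here. Srsf5 had 993 normalized counts in SPI-24 library 1, and the other SPI-24 libraries had 498 to 579. Srsf7 had 2158 normalized counts in DMSO library 1, and the other DMSO libraries had 1025.0 to 1319. Srsf9 had 412 normalized counts in DMSO library 2, and the other DMSO libraries had 656 to 716.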

How the results depend on the processing

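No member was called at an adjusted p under 0.05 under any of the 23 alternatives. DESeq2 called 5 genes in the whole table, none of them a member, and the other 22 alternatives called 0. Over all genes, 354 had an unadjusted p under 0.05, against 673 by DESeq2, 593 by limma-voom, 554 in libraries of at least 10 M counted reads, and 293 to 563 with 1 library left out. The count of members at that threshold, 2, became 0 by limma-voom and in libraries of at least 10 M reads, and 1 by limma without trend, without a filter and with a filter of 10 in every library. With 1 library left out it ran from 0 to 5. The median fold change of the members ran from -0.094 to 0.0051 over the alternatives and the number above 0 from 13 to 23.

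Replicate numbers are shared by the groups, but samples of the same number did not deviate together (correlations -0.13 to -0.011 over 5 pairs). With the number as a replicate block, 316 genes and 1 member had an unadjusted p under 0.05.

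Of the 21 named members, 13 kept their direction under every alternative. Under edgeR with DESeq2 size factors, edgeR with TMM, DESeq2 and limma-voom, the log2 fold change of Sf3b3 turned to -0.10, -0.11, -0.097 and -0.19, and that of Sf3b4 to -0.35, -0.39, -0.36 and -0.24. That of Supt4a was 0.016 by limma-voom. In libraries of at least 10 M reads, Hnrnpa2b1 was at 0.039, Hnrnpf at -0.095, Sf3b3 at -0.43, Srsf1 at -0.044 and U2af1 at 0.0072. Without the 2 libraries highest in spiny neuron markers, an alternative added after seeing the data, Sf3b4 was at -0.95, Sf3b6 at 0.033, Supt5 at -0.12 and Supt4a at 0.19. With 1 library left out, the range was -0.42 to 2.004 for Sf3b3, -0.79 to 1.02 for Sf3b4, -0.017 to 0.15 for Srsf1, -0.35 to 0.21 for U2af1, -0.21 to 1.51 for U2af1l4, -0.045 to 0.11 for Supt5 and -0.16 to 0.10 for Supt4a. The cause of these turns was not tested, other than the library at 0 named with each gene.

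The number of counted reads differed 8.57-fold between libraries. Standard errors of the log2 fold changes had a median of 0.47 over all genes tested and of 0.24 over the members. Sfpq, at a log2 fold change of 0.67 and an SE of 0.24, was not called by limma. The lack of a call alone therefore does not exclude a change of that size in a member. For at least 15 members, Sf3b2, Srsf1 and Hnrnpc among them, both ends of the 95% interval from limma were smaller than that size. Members with wider intervals were not bounded that closely.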
